A study of Mus musculus with 13 samples.

Results

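The machinery of presynaptic vesicle release was followed in RNA-seq counts of sorted mouse retinal cells. The labels name them retinal ganglion cells (RGCs), the neurons whose axons form the optic nerve. The 35 genes were a list written by name, and every one of them was found by its Ensembl gene ID among the 52550 genes of the count table. They cover synaptotagmins (calcium sensors and their relatives), SNARE proteins, complexins, active zone and priming proteins, the Rab3 system, synapsins, vesicle membrane proteins and the enzymes that recycle SNAREs. The development dataset held wild type (WT) mice at postnatal day (P) 1 (3 libraries), P14 (3) and P21 (2). The knockout dataset held injured adults, labelled P42, whose Kdm6a gene (also named UTX, a histone demethylase) was floxed in every animal. They received AAV2-Cre (2 libraries, Kdm6a deleted) or AAV2-GFP (3 libraries, Kdm6a intact) into the vitreous and an optic nerve crush 3 days before collection. All libraries came from retinal cells sorted for surface Thy1.2. AAV2 injected into the vitreous reaches many RGCs but is not restricted to them, and the number of animals behind each library is not given in the sources used here.

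A synaptic vesicle fuses when calcium reaches a synaptotagmin on its membrane and the vesicle SNARE Vamp zips with syntaxin and Snap25 on the plasma membrane, while complexins hold and release that complex and Munc13 and RIM proteins prepare the vesicle at the active zone. RGCs form conventional synapses in the brain and load their vesicles with glutamate through the transporter encoded by Slc17a6. Photoreceptors and bipolar cells, the other glutamatergic neurons of the retina, release at ribbon synapses, which use syntaxin 3, complexins 3 and 4, the ribbon protein Ribeye made from the Ctbp2 gene, Sv2b and the transporter encoded by Slc17a7, and lack synapsins. From this background, 6 members (Stx3, Cplx3, Cplx4, Slc17a7, Ctbp2 and Sv2b) are described below as ribbon members and 6 (Stx1a, Syn1, Syn2, Syn3, Cplx1 and Cplx2) as conventional members, while the other 23 serve both kinds of synapse or neither in particular. This grouping was made with earlier results of these data known.

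Total counts ran from 13637602 to 16070720 in the knockout dataset and from 30357454 to 38812917 in the development dataset. Levels are given as CPM, the count of a gene scaled to a common library size, here with TMM scaling over all 13 libraries. The sort label was checked against RGC markers. Rbpms, an RNA-binding protein used to identify RGCs, lay at 621, 614 and 677 CPM at P1, 62.2, 71.3 and 76.6 at P14 and 48.9 and 19.6 at P21, and at 0.602 to 3.13 in the 5 injured adult libraries. Thy1, the antigen of the sort, lay within 505 to 582 CPM at P1. In the adults it lay at 17.1, 23.9 and 26.1 CPM in AAV2-GFP and at 38.3 and 34.2 in AAV2-Cre, without overlap. The 16 RGC markers took 0.903% to 0.989% of all counts at P1, 0.0483% to 0.0861% at P21, 0.0384% to 0.0459% in AAV2-GFP and 0.0362% to 0.0442% in AAV2-Cre, and 1 of the 16 (Pou4f2) had no count in either AAV2-Cre library. The markers were not all low in the adults, since Nefl, a neurofilament subunit, lay at 147 to 186 CPM there, against 161 to 172 at P14 and 66.4 and 19.5 at P21. Kdm6a, the targeted gene, lay at 115, 96.5 and 119 CPM in AAV2-GFP and 110.4 and 112 in AAV2-Cre. Its level over the whole gene therefore did not separate the groups, and counts over a whole gene do not check the loss of a floxed part of it. The P1 replicate 3 library held less of the Müller glia markers (0.222% of counts) than the other P1 libraries (0.553% and 0.591%). It also held less of the bipolar cell markers (0.0746% against 0.101% and 0.105%) and of the cone markers (0.0156% against 0.0204% and 0.0198%). Its shares of RGC markers (0.989% against 0.922% and 0.903%) and rod markers (0.124% against 0.120% and 0.116%) were higher. P21 replicate 2 held less of the RGC markers (0.0483%) than P21 replicate 1 (0.0861%).

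**Figure D1:**
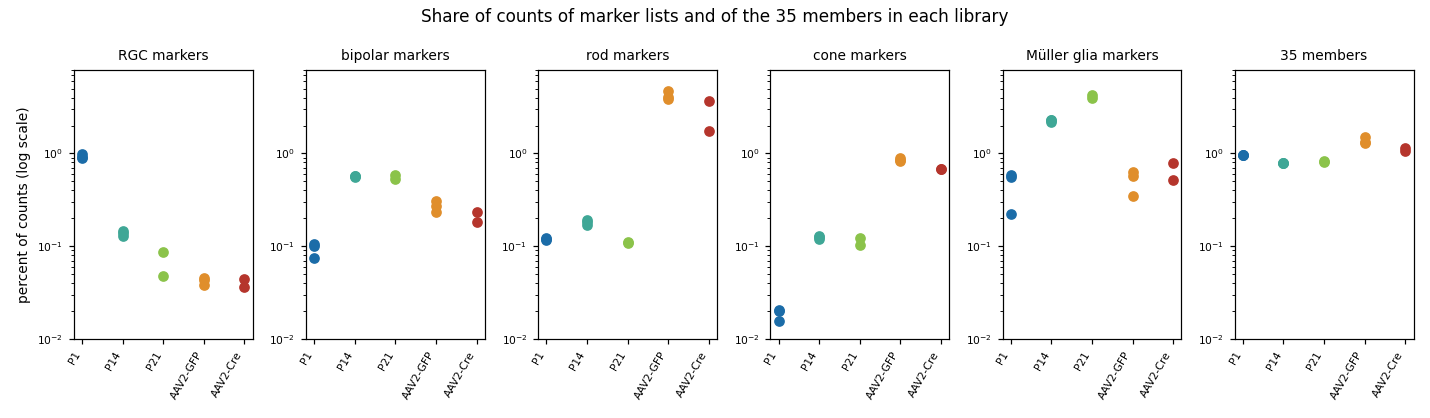
Percent of all counts (log scale) taken by each marker list and by the 35 members, with 1 point per library and 1 column per group. RGC markers ran from 0.903% to 0.989% at P1 to 0.0362% to 0.0442% in AAV2-Cre, while the 35 members together stayed between 0.785% and 1.502%.

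Between P1 and P14 the ribbon and conventional members moved in opposite directions. Because they were grouped with earlier results of these data known, this describes the groups and is no independent test of them. All 6 ribbon members rose, with a median log2 fold change of 1.78, and all 6 conventional members fell, with a median of -1.80. Over the whole list 11 members were higher at P14, 22 were lower and 2 (Vamp2 and Syt11) did not pass an adjusted p of 0.05 in edgeR's quasi-likelihood test, against 33.6% of the 20890 genes tested higher and 33.6% lower. The median log2 fold change was -0.63 over the members and -0.014 over all genes tested. Together the members took 0.952% to 0.970% of counts at P1 and 0.785% to 0.793% at P14. Over the same interval 14 of 16 RGC markers fell and 2 (Nefh and Isl1, the second also listed for bipolar cells) rose, all 15 bipolar cell markers and all 12 Müller glia markers rose, and 18 of 19 rod markers rose. All 10 cone, all 12 microglia and macrophage and all 10 endothelial and pericyte markers rose too, as did 8 of the 13 amacrine and horizontal cell markers tested, while 4 of those fell. As shares of counts, the RGC markers went from 0.903% to 0.989% to 0.129% to 0.146%, the bipolar markers from 0.0746% to 0.105% to 0.555% to 0.568%, the rod markers from 0.116% to 0.124% to 0.169% to 0.190% and the cone markers from 0.0156% to 0.0204% to 0.120% to 0.128%. The rod share includes Gnb1, the 1 rod marker that fell (log2 fold change -1.50), while the median over the 19 was 2.75. The share therefore need not follow the other rod markers. The part of these other cells in the member changes was not tested, and in bulk RNA fewer cells of a type and less RNA per cell cannot be told apart.

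**Figure D2:**
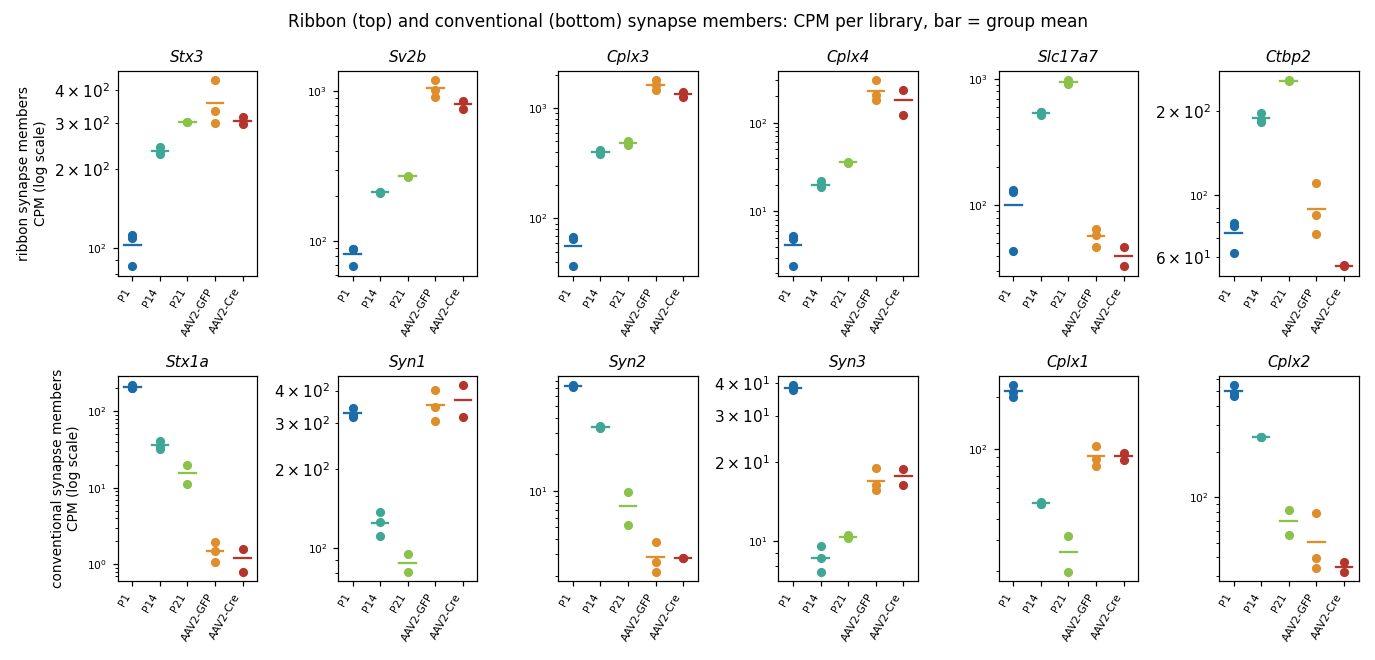
CPM (log scale) of the 6 ribbon members (top row) and the 6 conventional members (bottom row), with 1 point per library, a bar for the group mean, and its own scale in each panel. The P21 libraries lie above the P1 libraries in all 6 ribbon panels and under them in all 6 conventional panels, and in the adults Stx1a sits at 0.799 to 1.93 CPM and Sv2b at 765 to 1187.

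The complexins held the largest rise of the list, that of Cplx3. It lay at 65.1, 67.6 and 36.8 CPM in the P1 libraries and 415, 384 and 401 at P14, a log2 fold change of 2.79 ± 0.20 (SE, adjusted p = 9.74e-07). Its close relative Cplx4 lay at 5.27, 4.93 and 2.39 and 21.8, 19.6 and 18.7 CPM, a change of 2.23 ± 0.23 (SE, adjusted p = 1.2e-05). The lowest P1 value of both genes came from replicate 3, and every P14 library lay above every P1 library. The conventional complexin Cplx1 went the other way, from 212, 201 and 233 to 48.4, 49.95 and 48.4 CPM, a log2 fold change of -2.17 ± 0.13 (SE, adjusted p = 2.82e-07). Cplx2 fell 2.05-fold, from 489, 466 and 548 to 248, 252 and 248 CPM.

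Of the SNARE proteins, the pair of plasma membrane syntaxins exchanged places. Stx1a, the syntaxin of conventional synapses, lay at 204, 199.5 and 219 CPM at P1 and 32.4, 35.4 and 41.0 at P14, a log2 fold change of -2.55 ± 0.16 (SE, adjusted p = 4.01e-07). Stx3, the syntaxin of ribbon synapses, lay at 112, 109.6 and 85.3 and 242, 232 and 228 CPM, a change of 1.16 ± 0.098 (SE, adjusted p = 3.14e-06). Neither gene's P1 and P14 libraries overlapped. Snap25, the SNARE with which both syntaxins pair, moved less, from 657, 657 and 639 to 497, 521 and 499 CPM, a log2 fold change of -0.40 ± 0.043 (SE, adjusted p = 1.92e-05). The vesicle SNAREs differed. Vamp1 rose 1.73-fold, from 36.4, 37.5 and 30.8 to 58.1, 64.5 and 63.0 CPM, a log2 fold change of 0.79 ± 0.081 (SE, adjusted p = 1.23e-05). Vamp2, the main synaptobrevin of the forebrain, lay at 536, 505 and 544 and 564, 574 and 576 CPM and gave 0.084 ± 0.042 (SE, adjusted p = 0.106).

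The windows upstream of the transcription start of 4 members are shown, Sv2b and Syn1 because they hold a match and Stx3 and Stx1a as the syntaxin pair. The choice does not make them typical of the ribbon or conventional members. Matching windows of Syp and Ctbp2 and another of Sv2b are not shown. The windows shown come from RefSeq promoter records (GRCm38.p6). They were cut where they met an annotated exon, and run 5′ to 3′ on the gene's strand. Capitals mark exact matches, on either strand, to TAATCC, the core bound by the photoreceptor and bipolar cell factors Crx and Otx2, to TTCAGCACC, the left part of the element bound by the neuronal repressor REST, and to TGACGTCA, the cyclic AMP response element. Sv2b (chr7:75309263-75309512, minus strand) holds TAATCC, Syn1 (chrX:20921005-20921168, minus strand) holds TTCAGCACC and TGACGTCA, and Stx3 (chr19:11819404-11819653, minus strand) and Stx1a (chr5:135023232-135023481, plus strand) hold none of the 3 words.
Sv2b: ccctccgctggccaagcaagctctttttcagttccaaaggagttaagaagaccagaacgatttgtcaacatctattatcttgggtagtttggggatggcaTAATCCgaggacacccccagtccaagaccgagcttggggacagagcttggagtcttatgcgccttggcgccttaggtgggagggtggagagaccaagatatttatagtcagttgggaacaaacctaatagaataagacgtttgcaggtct
Syn1: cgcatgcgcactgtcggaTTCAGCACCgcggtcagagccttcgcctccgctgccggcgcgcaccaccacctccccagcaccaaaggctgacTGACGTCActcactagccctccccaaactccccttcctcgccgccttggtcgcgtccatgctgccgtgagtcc
Stx3: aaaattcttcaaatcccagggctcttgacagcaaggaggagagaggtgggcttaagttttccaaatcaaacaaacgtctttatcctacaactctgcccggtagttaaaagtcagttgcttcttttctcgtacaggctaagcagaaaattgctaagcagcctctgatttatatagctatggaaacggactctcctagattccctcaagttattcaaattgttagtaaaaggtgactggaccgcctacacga
Stx1a: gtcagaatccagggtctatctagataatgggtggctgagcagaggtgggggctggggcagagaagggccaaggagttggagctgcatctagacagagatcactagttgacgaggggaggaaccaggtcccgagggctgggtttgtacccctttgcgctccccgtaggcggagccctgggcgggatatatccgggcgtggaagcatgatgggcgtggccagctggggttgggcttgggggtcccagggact

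RefSeq windows were matched for 27 of the 35 members (37 windows). TAATCC stood in 4 of them (10.8%), those of Ctbp2, Sv2b and Syp, of which 2 are windows of Sv2b, against 6.25% of all 32851 windows, and nothing is read from a count so near the background. TTCAGCACC stood in the Syn1 window alone, against 0.301% of all windows, and TGACGTCA likewise, against 1.55%. A match of letters describes these windows and does not show that a factor binds there.

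The synapsins, which tether vesicles into a reserve pool, all fell between P1 and P14. Syn1 lay at 317, 322 and 342 CPM at P1 and 110.5, 137 and 126 at P14, a fall of 2.69-fold. Syn3 fell the most, from 39.1, 37.6 and 38.4 to 7.63, 9.52 and 8.59 CPM, a log2 fold change of -2.19 ± 0.090 (SE, adjusted p = 2.71e-08), and Syn2 the least, from 71.7, 72.6 and 73.6 to 32.8, 33.9 and 33.6 CPM (2.22-fold). No P14 library reached a P1 library in any of the 3 genes. Of the exon bases of Syn3, 14.1% overlap Timp3 on the other strand, and whether reads were counted by strand is not given in the sources used here.

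Among the synaptotagmins the direction depended on the gene. Syt1, the sensor of fast release, lay at 843, 866 and 851 CPM at P1 and 633, 649 and 605 at P14, a log2 fold change of -0.47 ± 0.044 (SE, adjusted p = 6.8e-06). Syt2, the other fast sensor of this group, rose 4.82-fold from 9.47, 10.5 and 8.52 to 46.1, 45.8 and 48.3 CPM, a log2 fold change of 2.27 ± 0.084 (SE, adjusted p = 1.71e-08). The largest falls of the whole list were those of Syt5 and Syt4. Syt5 went from 143, 139 and 161 to 19.2, 19.0 and 22.3 CPM, a log2 fold change of -2.90 ± 0.26 (SE, adjusted p = 5.03e-06). Syt4, an atypical synaptotagmin, went from 634, 622 and 653 to 86.7, 90.7 and 101 CPM, a change of -2.81 ± 0.064 (SE, adjusted p = 3.13e-09), and 14.5% of its exon bases overlap an antisense gene. Syt7, the high-affinity sensor of asynchronous release, fell 3.82-fold from 335, 336 and 381 to 90.4, 91.7 and 99.4 CPM. Syt11 lay at 357 to 377 CPM at P1 and 375 to 378 at P14, with overlapping libraries (adjusted p = 0.889).

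The vesicle membrane proteins gave the same split by gene. Slc17a7, the glutamate transporter of photoreceptors and bipolar cells, lay at 128, 132 and 43.5 CPM at P1 and 551, 516 and 546 at P14, a log2 fold change of 2.38 ± 0.34 (SE, adjusted p = 0.00014). P1 replicate 3 lay well under the other P1 libraries, and without that library the change was 2.01 (adjusted p = 6.11e-11). Slc17a6, the transporter of RGCs and no member of the list, moved the other way, from 215, 215 and 221 to 38.3, 42.9 and 39.0 CPM. Sv2b rose 2.52-fold, from 89.1, 89.2 and 68.1 to 213, 209.8 and 213 CPM (1.34 ± 0.097 (SE, adjusted p = 1.1e-06)), while its relatives fell. Sv2a, the most widely expressed of the family, went from 545, 532 and 565 to 419.7, 415 and 415 CPM, a log2 fold change of -0.42 ± 0.040 (SE, adjusted p = 7.87e-06). Sv2c went from 147, 149 and 166 to 25.4, 28.7 and 28.3 CPM, a change of -2.52 ± 0.23 (SE, adjusted p = 6.46e-06). Syp (synaptophysin), a general vesicle protein, rose 1.28-fold from 391, 369 and 383 to 493, 496 and 508 CPM, and 16.8% of its exon bases overlap an antisense gene.

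Of the 7 active zone genes, 5 fell and 2 rose between P1 and P14. Rims1, a scaffold that ties Rab3 vesicles to calcium channels, went from 148, 155 and 166 to 37.1, 41.2 and 37.6 CPM, a log2 fold change of -2.05 ± 0.079 (SE, adjusted p = 2.19e-08), whereas its relative Rims2 moved from 96.6, 95.2 and 102 to 81.8, 78.9 and 76.8 CPM (-0.34 ± 0.052 (SE, adjusted p = 0.00024)). The Munc13 genes moved in opposite directions. Unc13a fell from 388, 391 and 408 to 154, 149.5 and 162 CPM, a log2 fold change of -1.38 ± 0.047 (SE, adjusted p = 1.18e-08). Unc13b rose from 277, 274 and 267 to 402, 422 and 412 CPM, a change of 0.57 ± 0.046 (SE, adjusted p = 2.42e-06). The giant scaffold proteins fell, Bsn (bassoon) 2.63-fold from 283, 288 and 329 to 117, 116 and 116 CPM and Pclo (piccolo) 1.76-fold from 203, 205 and 204 to 113, 132 and 111 CPM. Ctbp2 rose 2.53-fold, from 77.5, 79.0 and 61.8 to 197, 185 and 183 CPM (1.34 ± 0.092 (SE, adjusted p = 7.3e-07)). Its gene count pools Ribeye with the transcriptional corepressor CtBP2, which starts from another promoter, so the share of the ribbon form is not known from these counts.

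The remaining members followed both directions. Rph3a (rabphilin), an effector of Rab3, fell 4.65-fold from 838, 835 and 939 to 184, 191 and 199 CPM, a log2 fold change of -2.22 ± 0.16 (SE, adjusted p = 1.02e-06). Rab3a, the vesicle GTPase it binds, fell 1.59-fold from 389, 383 and 415 to 251, 248 and 265 CPM. Nsf, the ATPase that takes spent SNARE complexes apart, rose 1.99-fold from 300.0, 296 and 261 to 601, 581 and 563 CPM, while Napb, its adaptor, fell 1.54-fold from 313, 310.4 and 303 to 207, 208 and 198 CPM. Snap91 (AP180), which assembles clathrin coats on retrieved membrane, fell 1.93-fold from 407, 408 and 411 to 209.9, 216 and 222 CPM. Leaving out any 1 of the P1 or P14 libraries left 11 members higher and 22 lower. With library size alone in place of TMM, which moved the median of all genes to 0.11, 13 members were higher, among them Syt11 and Vamp2, and 22 were lower.

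**Figure D3:**
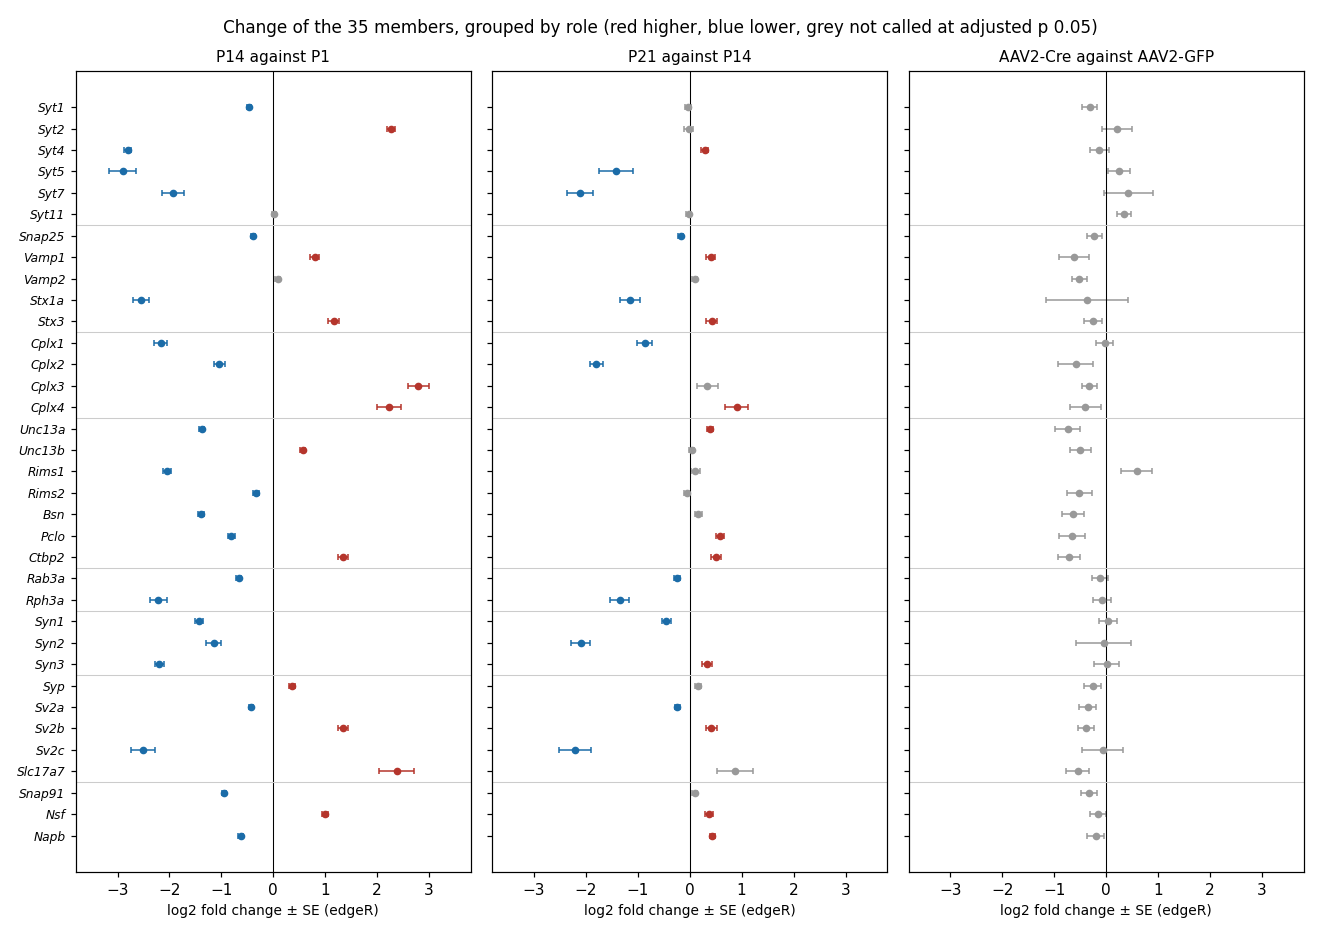
Log2 fold change ± SE of the 35 members in edgeR, grouped by role, for P14 against P1 (left), P21 against P14 (middle) and AAV2-Cre against AAV2-GFP (right), with red for higher, blue for lower and grey for not called at an adjusted p of 0.05. The left panel holds 11 red and 22 blue points, the middle panel 11 and 12, and the right panel is grey throughout.

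Between P14 and P21 members moved in both directions. Of the 35 members 11 were higher and 12 lower at P21, against 14.6% and 19.3% of all genes tested, and 12 were not called. The median was 0.097 over the members and -0.0032 over all genes. Among the ribbon members 4 rose (Stx3, Sv2b, Cplx4 and Ctbp2) and 2 were not called, and among the conventional members 5 fell and Syn3 rose. These changes are taken against the same P14 libraries as those above, so the values are given side by side and not related to each other. For Syt4, Syn3, Unc13a, Pclo and Napb they were -2.81, -2.19, -1.38, -0.81 and -0.63 for P14 against P1, all called lower, and 0.29, 0.33, 0.39, 0.59 and 0.43 for P21 against P14, all called higher. RGC marker shares were 0.129%, 0.137% and 0.146% at P14 and 0.0861% and 0.0483% at P21, and Müller glia markers 2.19% to 2.32% and 4.01% to 4.23%. Of the markers of other cells, 8 of 13 amacrine and horizontal cell genes were lower at P21 and 3 higher (median log2 fold change -1.80, 0.200% to 0.205% and 0.215% to 0.219% of counts), and amacrine and horizontal cells include neurons with conventional synapses. Among rod markers 14 of 19 were lower (0.169% to 0.190% and 0.109% to 0.112%), among endothelial and pericyte markers 8 of 10 (0.493% to 0.549% and 0.222% to 0.245%) and among microglia and macrophage markers 11 of 12 (0.0374% to 0.0392% and 0.00991% to 0.0119%), while bipolar and cone markers were called in both directions. Their part in the member changes was not tested.

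The members that fell most were expressed at a lower level in P21 replicate 2 than in replicate 1. Sv2c lay at 25.4, 28.7 and 28.3 CPM at P14 and 8.503 and 2.79 at P21, a log2 fold change of -2.22 ± 0.30 (SE, adjusted p = 0.000533). Syt7 lay at 90.4, 91.7 and 99.4 and 28.8 and 12.8 CPM, a change of -2.12 ± 0.25 (SE, adjusted p = 0.000234). Syt5 lay at 19.2, 19.0 and 22.3 and 10.9 and 3.47 CPM, a change of -1.42 ± 0.32 (SE, adjusted p = 0.00794). Without P21 replicate 1, the library with more of the RGC markers, these changes were -3.23, -2.81 and -2.47. Syn2 went from 32.8, 33.9 and 33.6 to 9.71 and 5.23 CPM, a log2 fold change of -2.10 ± 0.18 (SE, adjusted p = 4.1e-05), and Cplx2 from 248, 252 and 248 to 82.4 and 56.0 CPM, a change of -1.80 ± 0.13 (SE, adjusted p = 1.98e-05). Rph3a fell 2.55-fold, from 184, 191 and 199 to 92.5 and 52.3 CPM. For Stx1a the step was from 32.4, 35.4 and 41.0 to 20.0 and 11.3 CPM (-1.15 ± 0.19 (SE, adjusted p = 0.00137)), and for Cplx1 from 48.4, 49.95 and 48.4 to 31.6 and 19.8 CPM (-0.87 ± 0.15 (SE, adjusted p = 0.00178)). The other members that fell, Syn1, Rab3a, Sv2a and Snap25, changed by -0.45, -0.25, -0.24 and -0.18.

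Rises between P14 and P21 were smaller, at most 0.90 on the log2 scale. Cplx4 lay at 21.8, 19.6 and 18.7 CPM at P14 and 35.4 and 36.5 at P21, a log2 fold change of 0.90 ± 0.22 (SE, adjusted p = 0.011). Pclo rose from 113, 132 and 111 to 172 and 171 CPM (0.59 ± 0.074 (SE, adjusted p = 0.000327)), and Ctbp2 from 197, 185 and 183 to 256 and 258 CPM (0.50 ± 0.099 (SE, adjusted p = 0.00402)). Stx3 went from 242, 232 and 228 to 301 and 303 CPM, a change of 0.43 ± 0.11 (SE, adjusted p = 0.0128), and Sv2b from 213, 209.8 and 213 to 270.5 and 271, a change of 0.41 ± 0.11 (SE, adjusted p = 0.0147). Vamp1, Unc13a, Napb, Nsf, Syn3 and Syt4 rose by 0.40, 0.39, 0.43, 0.37, 0.33 and 0.29. Slc17a7, at 551, 516 and 546 and 912 and 980.2 CPM, gave 0.87 ± 0.35 (SE, adjusted p = 0.0847) and was not called although its libraries did not overlap, a call gained without the low-count filter (adjusted p = 0.00302), and Cplx3 gave 0.34 ± 0.21 (SE, adjusted p = 0.235). The other 10 members without a call lay between -0.060 (Rims2) and 0.16 (Bsn). Without P21 replicate 2 the rises fell from 11 to 7, since Stx3 (adjusted p = 0.0645), Sv2b (0.0704), Cplx4 (0.053) and Syn3 (0.146) were no longer called, and in a single fit of all 13 libraries 0 rises and 9 falls were called. Syn3 was not called with library size alone (0.0725) or without the low-count filter (0.0589) either. Syn3 was also lost without P14 replicate 1 (adjusted p = 0.0886), P14 replicate 3 (0.075) or P21 replicate 1 (0.0701), Cplx4 without P14 replicate 3 (0.0502), Syt4 without P21 replicate 1 (0.0645) and the fall of Snap25 without P14 replicate 2 (0.0617) or P21 replicate 2 (0.0701), while Syp was called higher without P21 replicate 1 (0.0128).

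Over the whole interval from P1 to P21, 12 members were higher and 22 lower, against 34.1% and 33.6% of all genes, and Syt11 was not called (adjusted p = 0.803). All 6 ribbon members rose, with a median log2 fold change of 2.49, and all 6 conventional members fell, with a median of -2.94. Here too the grouping was not independent of these data. The largest net rises were those of Slc17a7 (3.25 ± 0.37 (SE, adjusted p = 2.6e-05)), Cplx3 (3.13 ± 0.21 (SE, adjusted p = 7.06e-07)) and Cplx4 (3.13 ± 0.24 (SE, adjusted p = 1.57e-06)). The largest net falls were those of Sv2c (-4.73 ± 0.32 (SE, adjusted p = 7.14e-07)), Syt5 (-4.32 ± 0.34 (SE, adjusted p = 1.95e-06)) and Syt7 (-4.05 ± 0.27 (SE, adjusted p = 6.97e-07)), which without P21 replicate 1 came to -5.78, -5.40 and -4.77. Stx1a fell 13.0-fold and Stx3 rose 3.00-fold. The smallest called falls were those of Pclo and Napb (-0.23 and -0.19), and the call for Pclo was lost with P1 replicate 2 left out (adjusted p = 0.0527) or with P21 replicate 2 left out (adjusted p = 0.0532), and with library size alone (adjusted p = 0.0835). Vamp2, not called over either step, was called over the whole interval at 0.18 ± 0.047 (SE, adjusted p = 0.00678). In the single fit of 13 libraries the calls of Vamp2 (adjusted p = 0.199), Napb (0.187), Pclo (0.327) and Rims2 (0.0798) were lost for P21 against P1, and that of Rims2 for P14 against P1 (0.152).

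The balance within pairs of related genes was read as the ratio of their CPM per kilobase of exon in each library, which needs no scaling between libraries. Stx3 over Stx1a was 0.257, 0.256 and 0.182 in the P1 libraries, 3.49, 3.06 and 2.59 at P14, 7.02 and 12.47 at P21, 135, 80.2 and 129 in AAV2-GFP and 173 and 92.0 in AAV2-Cre. The syntaxin of conventional synapses was thus the more abundant in every P1 library and the ribbon syntaxin in each of the other 10 libraries. Cplx3 over Cplx1 was 0.227, 0.250 and 0.117 at P1, 6.35, 5.70 and 6.15 at P14, 10.9 and 18.9 at P21, 12.7, 13.6 and 13.6 in AAV2-GFP and 10.9 and 10.8 in AAV2-Cre. Sv2b over Sv2a was 0.0904, 0.0928 and 0.0667 at P1, 0.280, 0.279 and 0.284 at P14, 0.433 and 0.449 at P21, 2.90, 2.03 and 2.13 in AAV2-GFP and 1.96 and 2.65 in AAV2-Cre, so Sv2b passed Sv2a in the adult libraries and not before. Rims2 over Rims1 was 0.462, 0.436 and 0.435 at P1, 1.56, 1.35 and 1.45 at P14, 1.15 and 1.48 at P21, 18.3, 11.2 and 6.93 in AAV2-GFP and 5.48 and 5.12 in AAV2-Cre. Unc13b over Unc13a was 0.396, 0.388 and 0.363 at P1, 1.44, 1.56 and 1.41 at P14 and 1.13 and 1.17 at P21, and between 0.467 and 1.01 in the adults. Vamp1 stayed far under Vamp2 in all 13 libraries, at ratios from 0.0171 to 0.0510. For the vesicular glutamate transporters, Slc17a7 over Slc17a6 was 0.594, 0.612 and 0.197 at P1, 14.4, 12.04 and 14.0 at P14, 65.1 and 250.4 at P21, 4.04, 8.08 and 11.5 in AAV2-GFP and 2.17 and 4.77 in AAV2-Cre.

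**Figure D4:**
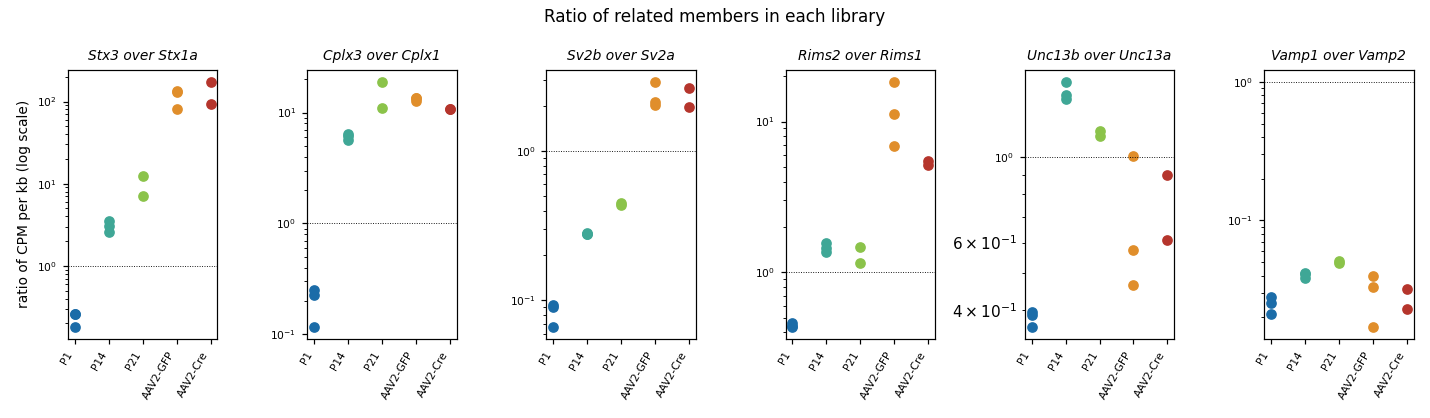
Ratio of CPM per kilobase of exon (log scale) of 6 pairs of related members, with 1 point per library, 1 column per group and a dotted line at a ratio of 1. Stx3 over Stx1a runs from 0.182 in P1 to 173 in AAV2-Cre, and Vamp1 over Vamp2 lies under the line in all 13 libraries.

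The injured adults continued the order of the ages for some members and not for others. The group means rose from P1 through P14 and P21 to both adult groups for 5 members (Stx3, Sv2b, Cplx3, Cplx4 and Nsf) and fell likewise for 5 (Stx1a, Syn2, Sv2a, Cplx2 and Syt7), while the other 25 followed neither order. Of the 35 members, 7 were higher in all 5 adult libraries than in all 8 development libraries (Syt1, Snap25, Sv2b, Cplx3, Cplx4, Nsf and Napb), as were 22.5% of the 23844 genes compared, and 9 were lower in all 5 (Syt7, Snap91, Stx1a, Syn2, Sv2a, Unc13a, Unc13b, Rims1 and Bsn), as were 24.5%. By group mean, 17 members were highest at P1, 2 at P14 (Syt2 and Unc13b), 3 at P21 (Vamp1, Slc17a7 and Ctbp2), 11 in AAV2-GFP and 2 in AAV2-Cre (Syt11 and Syn1). How all genes divide by order of means or by highest group was not counted. Nothing particular to the members is therefore read from their counts by order or by highest group. The dataset, the age and the injury change together here and cannot be told apart, so these levels carry no test. Rod markers took 0.109% to 0.112% of counts at P21 and 3.84% to 4.67% in AAV2-GFP, cone markers 0.104% to 0.121% and 0.831% to 0.888%, bipolar markers 0.524% to 0.580% and 0.234% to 0.304%, and Müller glia markers 4.01% to 4.23% and 0.347% to 0.623%. Microglia and macrophage markers took 0.00991% to 0.0119% and 0.621% to 0.962%, T and NK cell markers 0.000683% to 0.000875% and 0.0395% to 0.0773%, B cell markers 0.000142% to 0.000240% and 0.0215% to 0.0474%, endothelial and pericyte markers 0.222% to 0.245% and 0.0150% to 0.0324%, and amacrine and horizontal cell markers 0.215% to 0.219% and 0.0955% to 0.0999%. Their part in the member levels was not tested.

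The fusion proteins did not move together in the adults. Snap25 and Syt1 were higher in all 5 adult libraries than in every development library. Snap25 lay at 441 and 419.9 CPM at P21 and 2054, 1636 and 1729 in AAV2-GFP and 1585 and 1578 in AAV2-Cre, and Syt1 at 607 and 575, 2129, 1742 and 1904, and 1702 and 1465. The AAV2-GFP means were higher than the P21 means by factors of 4.20 and 3.26. Nsf lay at 718 and 730.1 and 1692, 1399 and 1325 CPM and Napb at 269 and 262 and 763, 538 and 562. Vamp2 lay at 586 and 589 CPM at P21, 714, 685 and 801 in AAV2-GFP and 497 and 555 in AAV2-Cre. Its highest group mean was that of AAV2-GFP. Its AAV2-Cre mean (526) was close to its P1 mean (528), with overlapping libraries. Stx1a was at its lowest in the adults, while Vamp1 went from 79.7 and 77.6 CPM at P21 to 62.6, 72.3 and 36.6 in AAV2-GFP and 42.8 and 33.8 in AAV2-Cre. Syp differed less between P21 and AAV2-GFP, at 512 and 559.6 and 659.8, 613 and 570.5.

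The ribbon members parted into separate patterns in the adults. Cplx3 reached 1798, 1475 and 1609 CPM in AAV2-GFP against 467 and 506 at P21, Cplx4 303, 181 and 205 against 35.4 and 36.5, and Sv2b 1187, 922 and 1022 against 270.5 and 271. Stx3 lay at 436, 332 and 299 CPM, and its lowest AAV2-GFP library was at the P21 level. Slc17a7 was the reverse case. It lay at 912 and 980.2 CPM at P21 and 47.2, 58.5 and 64.4 in AAV2-GFP, a P21 mean 16.7 times the AAV2-GFP mean and the largest ratio in either direction among the 35 members. Ctbp2 also lay lower, at 84.7, 72.1 and 109.96 CPM against 256 and 258 at P21.

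The conventional members differed among themselves as well. Stx1a was barely detected, at 1.51, 1.93 and 1.08 CPM in AAV2-GFP, and Syn2 lay at 3.81, 2.60 and 2.17, both under every development library. Syn1 lay at 401, 307 and 347 CPM, a range that overlapped that of P1 (317, 322 and 342), and Cplx1 lay at 105, 80.5 and 87.9 CPM, between P14 and P1. Among the scaffolds, Bsn lay at 26.6, 29.7 and 28.4 CPM against 122 and 128 at P21, Rims1 at 6.82, 10.4 and 9.996 against 44.1 and 35.7, and Unc13b at 86.4, 66.1 and 67.3 against 399.9 and 411. Of the synaptotagmins, Syt4 lay at 415, 299 and 306 CPM, above P14 and P21 and under P1, and Syt7 at 6.39, 3.45 and 5.78, under all development libraries. Syt11 stayed within 304 to 437 CPM over all 13 libraries.

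GC content moved with the difference between the datasets. Over all genes, the median log2 difference of AAV2-GFP from P21 (CPM with a pseudocount of 1) went from 0.56 for genes with up to 40% GC in their exons to -0.53 above 55%. For the members it was 1.41 over the 4 between 40% and 45% and -0.59 over the 10 above 55%, and Snap25, with the lowest GC content of the list (38.7%), stood at 2.06. Members of high GC content were found at both ends, with Syn1 (57.9% GC) at 1.99 and Slc17a7 (56.6%) at -4.05. The part of GC content in these differences was not tested.

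**Figure D5:**
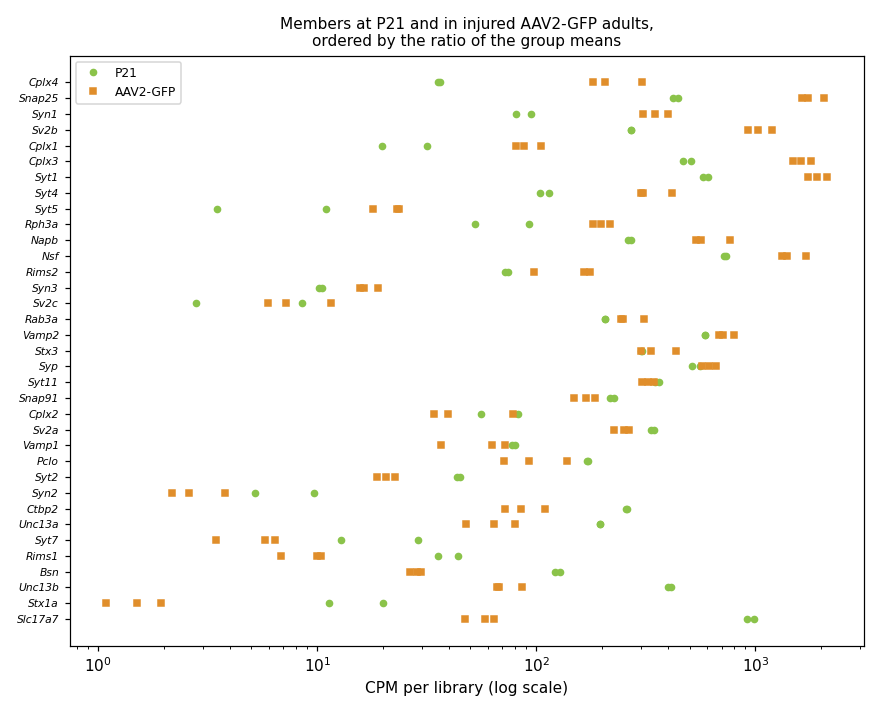
CPM (log scale) of the 35 members in the 2 P21 libraries (circles) and the 3 AAV2-GFP libraries (squares), ordered by the ratio of the group means. Cplx4 at the top had an AAV2-GFP mean 6.40 times that of P21, and Slc17a7 at the bottom a P21 mean 16.7 times that of AAV2-GFP.

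The question of the knockout dataset was what deletion of Kdm6a changes in RGCs after injury. RGC markers took 0.0384% to 0.0459% of counts in AAV2-GFP and 0.0362% to 0.0442% in AAV2-Cre. Of the 14 RGC markers tested, 4 had a log2 fold change below 0 and the median was 0.36. Of these markers, 1 was called lower (Isl1, also listed for bipolar cells) and none higher. Thy1, the antigen of the sort, was higher in both AAV2-Cre libraries than in any AAV2-GFP library. Rod markers took 3.84% to 4.67% and 1.74% to 3.72%. The values below therefore describe the sorted cells as a whole and not RGCs alone. For release genes no difference passed the test: edgeR called 0 of the 35 members at an adjusted p of 0.05, against 1.33% of the 18395 genes tested higher in AAV2-Cre and 0.294% lower. DESeq2 called 0 higher and 2 lower (Vamp2 and Ctbp2), and 9 members had an unadjusted p under 0.05 in edgeR (Vamp2, Syt11, Unc13b, Pclo, Slc17a7, Sv2b, Ctbp2, Unc13a and Bsn). The log2 fold change was below 0 for 28 of the 35 members, as it was for 52.4% of all genes, with a median of -0.26 over the members and -0.028 over all genes. Libraries of the groups did not overlap for 13 members that were lower and 3 that were higher (Syt5, Syt11 and Rims1), where 15.6% and 19.5% of all genes did not overlap in these directions. The spread between libraries was wide in this dataset, with a biological coefficient of variation of 0.340 against 0.109 in development.

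The members nearest to a call belonged to the active zone and the SNAREs. Ctbp2 lay at 84.7, 72.1 and 109.96 CPM in AAV2-GFP and 55.4 and 55.9 in AAV2-Cre, a log2 fold change of -0.72 ± 0.20 (SE, adjusted p = 0.126). Vamp2 lay at 714, 685 and 801 and 497 and 555 CPM and gave -0.52 ± 0.15 (SE, adjusted p = 0.125). For Unc13a the values were 47.7, 64.0 and 80.0 and 40.8 and 38.0 CPM (-0.74 ± 0.24 (SE, adjusted p = 0.171)), for Bsn 26.6, 29.7 and 28.4 and 20.0 and 17.3 (-0.64 ± 0.21 (SE, adjusted p = 0.184)), and for Pclo 138, 92.5 and 71.0 and 64.7 and 66.2 (-0.65 ± 0.25 (SE, adjusted p = 0.245)). In each of these 5 genes both AAV2-Cre libraries lay under the 3 AAV2-GFP libraries. Rims1 was the exception of the active zone group, at 6.82, 10.4 and 9.996 CPM in AAV2-GFP and 13.1 and 15.0 in AAV2-Cre (0.58 ± 0.31 (SE, adjusted p = 0.392)). With all 13 libraries in a single fit, 4 members were called lower (Vamp2, Ctbp2, Unc13a and Bsn) and 2 higher (Rims1 and Syt11), and without the low-count filter 3 were called lower (Pclo, Ctbp2 and Unc13a). The single fit takes the spread from both datasets together. The share of all genes called in these fits is not given here, so nothing about the members is read from these calls.

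By role, the medians were -0.64 for the 7 active zone genes, -0.37 for the 5 SNARE proteins, -0.36 for the 4 complexins, 0.012 for the 3 synapsins and 0.22 for the 6 synaptotagmins, and no member of any role was called. The ribbon members had a median of -0.40, with all 6 values below 0, and the conventional members -0.042. Slc17a7 lay at 47.2, 58.5 and 64.4 CPM in AAV2-GFP and 32.8 and 46.9 in AAV2-Cre (-0.55 ± 0.23 (SE, adjusted p = 0.271)), Sv2b at 1187, 922 and 1022 and 765 and 868 (-0.39 ± 0.15 (SE, adjusted p = 0.246)), and Cplx3 at 1798, 1475 and 1609 and 1402 and 1269.9 (-0.32 ± 0.14 (SE, adjusted p = 0.312)). Stx3 gave -0.26 (adjusted p = 0.529), Stx1a -0.37 (0.875), Cplx1 -0.032 (0.952), Unc13b -0.50 (0.261), Rims2 -0.52 (0.333), Vamp1 -0.62 (0.333) and Sv2a -0.36 (0.309). Among the synaptotagmins, Syt11 lay at 344, 304 and 322 CPM in AAV2-GFP and 437 and 405 in AAV2-Cre (0.34 ± 0.14 (SE, adjusted p = 0.255)). The other synaptotagmins lay between -0.32 (Syt1) and 0.43 (Syt7), and the rest of the members between -0.59 (Cplx2) and 0.027 (Syn1).

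Markers of photoreceptors and bipolar cells lay lower in AAV2-Cre too. Rod markers took 4.67%, 3.84% and 4.09% of counts in the AAV2-GFP libraries and 1.74% and 3.72% in AAV2-Cre, with all 19 markers below 0 and none called. Cone markers took 0.831% to 0.888% and 0.675% to 0.682% (8 of 10 below 0, 1 called lower), and bipolar markers 0.304%, 0.268% and 0.234% and 0.237% and 0.181% (14 of 15 below 0, 2 called lower). Of the markers that lay higher, those of B cells took 0.0215% to 0.0474% and 0.0590% to 0.117% (9 of 9 above 0, 2 called higher) and those of T and NK cells 0.0395% to 0.0773% and 0.0828% to 0.143% (12 of 12 above 0, none called). No gene of these 5 lists was at 0 in all libraries of either group, and their part in the member differences was not tested.

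The release genes were set beside 63 other presynaptic genes, a list of calcium channels, further SNAREs, SNARE regulators, endocytic proteins, transporters and adhesion molecules. From P1 to P14, 24 of the 63 rose, 36 fell and 3 were not called, with a median log2 fold change of -0.53. That was 38.1% higher and 57.1% lower, against 33.6% and 33.6% of all genes tested, whose median was -0.014. Slc32a1, the vesicular transporter of inhibitory neurons, rose from 5.31 ± 1.85 CPM (SD, n = 3) to 41.8 ± 1.75 (SD, n = 3), a change of 2.94 ± 0.21 (SE, adjusted p = 8.55e-07), and Cacna2d4, a calcium channel subunit of photoreceptors, gave 2.72 ± 0.24 (SE, adjusted p = 4.9e-06). Cacna1b, the pore of the N-type channel of conventional terminals, fell from 418 ± 22.8 to 42.6 ± 7.88 CPM (SD, n = 3 each), a change of -3.33 ± 0.22 (SE, adjusted p = 4.94e-07), and Rab3b gave -3.05 ± 0.19 (SE, adjusted p = 3.72e-07). From P14 to P21, 12 rose, 26 fell and 25 were not called (median -0.17). These were 19.0% higher and 41.3% lower, against 14.6% and 19.3% of all genes tested (median -0.0032). The largest rises were in Syt10 (0.94 ± 0.22 (SE, adjusted p = 0.00938)) and Cadps (0.85 ± 0.068 (SE, adjusted p = 2.82e-05)) and the largest falls in Doc2a (-3.07 ± 0.36 (SE, adjusted p = 0.000215)) and Slc17a6 (-2.10 ± 0.35 (SE, adjusted p = 0.00169)). From P1 to P21, 24 rose and 34 fell, led by Cacna1f (3.12 ± 0.30 (SE, adjusted p = 7.52e-06)), the L-type channel of ribbon synapses, and Doc2a (-5.53 ± 0.33 (SE, adjusted p = 3.37e-07)). As shares this was 38.1% higher and 54.0% lower, against 34.1% and 33.6% of all genes tested. Between AAV2-Cre and AAV2-GFP, 61 of the 63 could be tested and 1 was called, Cacna1f, at 367 ± 10.9 CPM (SD, n = 3) in AAV2-GFP and 206 ± 17.3 (SD, n = 2) in AAV2-Cre (-0.88 ± 0.14 (SE, adjusted p = 0.0253)), while 13 had an unadjusted p under 0.05 in edgeR and the median was -0.14. Over all genes tested, 1.33% were called higher and 0.294% lower, and the median was -0.028.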

How the data were processed

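RNA-seq of 13 libraries of Thy1.2-sorted retinal cells was used, grouped as the labels give them. The authors deposited whole-number counts per gene without normalization. Per the submitters' notes these came from Subread 2.0.3 (featureCounts) after alignment by HISAT2 2.2.1 to GRCm38, with Trimmomatic 0.39 for trimming and FastQC 0.11.9 for quality control. Symbols were matched by Ensembl ID for 52403 of 52550 genes (147 unmatched), and all 35 members were found and passed the low-count filter in every comparison. The library kit is not described as stranded.

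Each dataset was fitted on its own with edgeR 4.0.16 (glmQLFit, glmQLFTest, TMM, filterByExpr, Benjamini-Hochberg over all genes tested) in R 4.3.3 with limma 3.58.1, and a gene was called at an adjusted p under 0.05. The development ages shared 1 estimate of the spread. Alternatives were DESeq2 1.42.0, DESeq2 size factors, library size alone, a single fit of the 13 libraries, no filter on low counts, a minimum of 10 counts per library, the replicate number as a block, and leaving out each library. The fits were tested on simulated data. Levels are CPM with TMM over all 13 libraries, while fold changes come from the fits.

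The members, the gene lists and their grouping into ribbon and conventional genes were chosen with earlier results of these data known. Named were all members, with full statistics for those with the largest called change and for 6 pairs of related genes, and the 2 other presynaptic genes with the largest rise and fall per comparison. Nothing says that libraries came from separate animals beyond the term biological replicate, so p-values measure the spread between these libraries, which may hold technical parts. Promoter windows came from RefSeq (GRCm38.p6).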

Additional observations from a re-analysis of the deposited data

How the results depend on the processing

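The called members kept their direction under every alternative run. With any 1 library left out, P14 against P1 stayed at 11 higher and 22 lower, and P21 against P1 at 12 higher and 21 to 22 lower. In the fit of 13 libraries these were 11 and 21 (Rims2 lost) and 11 and 19 (Vamp2, Rims2, Pclo and Napb lost). P21 against P14 ran from 7 (without P21 replicate 2) to 11 higher and from 11 to 12 lower, and gave 0 higher and 9 lower with all 13 libraries in a single fit. The cause was not tested. For AAV2-Cre against AAV2-GFP 0 members were called in either direction with any library left out, while DESeq2 called 2 lower, the fit without a low-count filter 3 lower, and the fit of all 13 libraries 2 higher and 4 lower. With library size alone, 1 member in place of 2 was highest in AAV2-Cre. The share of all genes called is given for the main fits only, so nothing is read from calls gained in an alternative fit.

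Deviations of same-numbered libraries from their group means correlated between -0.0468 and 0.0197. With 2 or 3 libraries per group the deviations of a group cancel out, so these values cannot decide whether samples were paired. The main fits used no pairing. With the replicate block, P21 against P14 gave 10 higher (Syn3 lost) and 12 lower, and no other member call changed.

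The values that changed sign belonged to members without a call. With 1 library left out, the AAV2-Cre against AAV2-GFP log2 fold changes ran, by gene, for Syt2 from -0.28 to 0.59, Syt4 from -0.28 to 0.032, Syt7 from -0.28 to 0.94, Stx1a from -0.94 to 0.073, Syn1 from -0.16 to 0.23, Syn2 from -0.20 to 0.18, Syn3 from -0.057 to 0.12, Sv2c from -0.33 to 0.30, Cplx1 from -0.074 to 0.058, Cplx4 from -0.93 to 0.029 and Rph3a from -0.26 to 0.12. They also changed sign with library size alone for Syn1 (-0.026) and Syn3 (-0.042), with a minimum of 10 counts in each library for Syn3 (-0.00082), and in the fit of 13 libraries for Cplx1 (0.0058). In development, leaving out 1 library moved Syt11 from -0.0090 to 0.017 for P14 against P1, and Unc13b from -0.0099 to 0.061 and Rims1 from -0.051 to 0.22 for P21 against P14. With library size alone Syt11 gave 0.053 for P21 against P1 and Unc13b -0.026 for P21 against P14, and Unc13b gave -0.023 there in the fit of 13 libraries. A lone library left in a group was assumed to vary like the other groups. Depth bounds the lowest members, such as Stx1a with 11 counts in its lowest library.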
